A study of Rattus norvegicus with 24 samples.

Results

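A set of 4 neuropeptide precursor genes was followed across primary rat cortical cells exposed to glutamate and to 3 agents. They were Sst (ENSRNOG00000001837, somatostatin), Npy (ENSRNOG00000009768, neuropeptide Y), Vgf (ENSRNOG00000001416) and Penk (ENSRNOG00000008943, proenkephalin). The genes were taken by their Ensembl gene IDs and were 4 of 32754 gene rows in the count table. All 4 were among the 15908 genes that had enough counts to be tested.

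Neuropeptides are made as longer precursor proteins, which are cut and trimmed in the secretory pathway, stored in dense-core vesicles and released when a neuron fires. In the cortex, somatostatin and neuropeptide Y are made mainly by GABAergic interneurons. Proenkephalin gives rise to the enkephalins, which are opioid peptides, and Vgf, first known as a gene induced by nerve growth factor, encodes a precursor from which several secreted peptides are cut. Transcription of such genes can follow neuronal activity. The somatostatin gene is a classic target of CREB, a transcription factor that is activated by cAMP and calcium signals and binds the cAMP response element (CRE).

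The study used cells from rat cortex that had been cultured for 8 days and then given either fresh growth medium or a medium containing glutamate at 250 µM, with scanning for 4 h afterwards. Each medium was combined with DMSO, the solvent control, or with IS141, AH609 or AH236, which gave 8 groups of 3 libraries and 24 libraries in all. The labels do not say what the 3 agents are, nor their dose or timing, and the strain and age of the animals and the time of RNA extraction are not stated. Library totals lay between 22509400 and 35496447 counts, and levels are given as CPM (counts scaled to the library total) after TMM scaling between libraries, as mean ± SD with n = 3. CPM are not corrected for transcript length, so levels are compared within a gene and not between genes. The labels do not say whether replicates came from separate cultures. The p-values therefore rest on the spread from library to library, part of which may be technical. The labelled cell type could not be checked against marker genes, because no table paired the IDs with other symbols.

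The promoter sequences of the members are shown because CRE-dependent transcription is the best known control of one of them. RefSeq promoter windows (build GRCr8, 250 bases before to 30 bases after the annotated start) were matched for 3 of the 4 genes, Sst, Npy and Vgf. Each is written 5′ to 3′ on the strand of the gene, and capitals mark a full CRE (TGACGTCA) or a TATA box (TATAAA).
Sst, chr11:90461296-90461575, plus strand: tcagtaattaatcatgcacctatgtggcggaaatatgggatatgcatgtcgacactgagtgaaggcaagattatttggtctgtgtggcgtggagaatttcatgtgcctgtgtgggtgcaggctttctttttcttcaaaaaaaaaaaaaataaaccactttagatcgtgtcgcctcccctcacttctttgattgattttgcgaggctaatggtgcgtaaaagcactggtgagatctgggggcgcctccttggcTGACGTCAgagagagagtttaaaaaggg
Npy, chr4:80211861-80212140, plus strand: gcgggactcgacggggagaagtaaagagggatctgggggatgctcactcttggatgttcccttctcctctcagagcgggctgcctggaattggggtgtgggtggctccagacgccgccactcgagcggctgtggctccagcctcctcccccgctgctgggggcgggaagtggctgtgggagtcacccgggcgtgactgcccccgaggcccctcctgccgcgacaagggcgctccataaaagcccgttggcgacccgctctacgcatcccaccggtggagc
Vgf, chr12:25276991-25277270, minus strand: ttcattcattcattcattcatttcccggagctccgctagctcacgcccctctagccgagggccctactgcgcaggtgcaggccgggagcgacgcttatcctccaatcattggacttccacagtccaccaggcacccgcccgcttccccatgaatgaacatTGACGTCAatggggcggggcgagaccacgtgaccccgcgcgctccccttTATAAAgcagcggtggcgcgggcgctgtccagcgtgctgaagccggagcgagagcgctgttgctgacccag

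The full CRE was found in Sst, at bases 3 to 10 after the annotated start, and in Vgf, at bases -90 to -83. It was present in 1.78% of 33469 rat promoter windows of 280 bases, searched on both strands. TATAAA was found on the gene strand of Vgf, at bases -41 to -36, and in 8.48% of all windows. The AP-1 motif TGANTCA, searched on both strands, was in none of the 3 windows and in 7.0% of all windows. The shorter core TGACG, which lies within the full CRE and was searched on both strands, was in 20.2% of all windows and occurred in the Sst and Vgf windows only as part of the full element. These are matches of letters, and no binding was measured. Where transcription starts in these cells was not measured either, so a place before or after the start is that of the annotation alone.

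One library stood apart from its group. DMSO medium replicate 1 scored 48.0 on the second principal component of all genes, which carried 4.72% of the variance, while the other 23 libraries scored between -19.7 and 12.8. Its levels of all 4 neuropeptide genes were above those of all 11 other medium libraries. The share of all genes for which this held was not counted, so it does not set the members apart. Relative to the mean of DMSO medium replicates 2 and 3, the level in this library was 9.09-fold higher for Sst, 2.64-fold for Npy, 3.22-fold for Vgf and 11.6-fold for Penk. On the log2 scale this library covered 75.2% of the step from those replicates to the DMSO glutamate mean for Sst, 67.1% for Vgf and 81.1% for Penk. Npy went past that mean, at 134% of the step. On the first principal component of all genes, with 69.9% of the variance, DMSO medium replicate 1 scored -38.6. DMSO medium replicates 2 and 3 scored -58.8 and -58.0 there. The IS141 medium libraries scored -41.9 to -39.8 and the DMSO glutamate libraries 39.9 to 44.1. This library thus lay on the medium side of that component, apart from the other DMSO medium replicates. Results are therefore given with all 24 libraries and again without this library, the second set having been added after the data were seen.

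Sst was low in growth medium and high under glutamate in every treatment. In DMSO medium the 3 replicates had 248, 30.3 and 24.2 CPM, and in DMSO glutamate they had 519, 525 and 500.0 CPM. The first of these was the only 1 of the 12 medium libraries above 40.4 CPM, and the glutamate replicates lay within a narrow band. IS141 cultures had 37.9, 36.3 and 40.4 CPM in medium and 597, 551 and 497 CPM under glutamate. AH609 cultures had 22.1, 32.6 and 33.2 CPM in medium and 569, 682 and 548 CPM under glutamate. These ranges were far apart in both agents. AH236 cultures had 19.0, 15.3 and 22.1 CPM in medium and 503, 484 and 500.2 CPM under glutamate. By mean, the glutamate groups ran from AH609 (599.8 ± 71.6) through IS141 (549 ± 50.3) and DMSO (515 ± 13.2) to AH236 (496 ± 10.1), and the ranges of each neighbouring pair overlapped. The AH609 range lay above that of AH236 and above that of DMSO, the latter as in 11.2% of all genes. In medium the order was DMSO (101 ± 127), IS141 (38.2 ± 2.04), AH609 (29.3 ± 6.21) and AH236 (18.8 ± 3.39). The ranges of the 3 agents did not overlap in medium, though AH609 and AH236 nearly met at 22.1 CPM, and the DMSO range took in that of IS141 and overlapped that of AH609.

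Npy had the lowest range of counts of the members, between 97 and 462 per library, and the smallest step under glutamate. In DMSO medium replicate 2 its count of 171 was above the 128 of Penk, and in replicate 3 both had 186. A count of 97 has an exact 95% Poisson interval of 78.7 to 118, which covers counting error only. The interval takes the count as independent reads and may not hold if Npy shares reads with another row, as described below. DMSO medium had 15.6, 6.11 and 5.71 CPM and DMSO glutamate 11.2, 13.6 and 11.8 CPM. The first medium library was above all 12 glutamate libraries, so these ranges overlapped. IS141 had 6.01, 5.09 and 6.51 CPM in medium and 10.1, 12.04 and 10.2 CPM under glutamate. AH609 had 4.35, 3.97 and 3.96 CPM in medium and 8.94, 9.78 and 10.1 CPM under glutamate. AH236 had 3.32, 2.71 and 3.62 CPM in medium and 7.09, 7.64 and 7.46 CPM under glutamate, the lowest of the glutamate groups. Under glutamate the means ran from DMSO (12.2 ± 1.22) through IS141 (10.8 ± 1.09) and AH609 (9.59 ± 0.588) to AH236 (7.40 ± 0.281), with overlap only between DMSO and IS141, while IS141 and AH609 nearly met at 10.1 CPM. The medium means were 9.14 ± 5.59 in DMSO, 5.87 ± 0.718 in IS141, 4.10 ± 0.223 in AH609 and 3.22 ± 0.462 in AH236, and the ranges of the 3 agents did not overlap. Npy was the 1 member whose glutamate means fell in the order DMSO, IS141, AH609, AH236, an order seen in 5.82% of all genes tested.

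Vgf was the member with the most counts, 3773 to 30521 per library. DMSO medium had 500.2, 154 and 157 CPM and DMSO glutamate 932, 947 and 791 CPM. The first medium library lay between the remaining medium libraries and the glutamate libraries. IS141 had 251, 248 and 301 CPM in medium and 815, 860.1 and 858 CPM under glutamate. AH609 had 193, 189 and 219.8 CPM in medium and 887, 889.8 and 906 CPM under glutamate. AH236 had 125, 124 and 140.1 CPM in medium and 772, 718 and 805 CPM under glutamate. In medium the 3 agents again did not overlap, with means of 266 ± 29.8 in IS141, 201 ± 16.9 in AH609 and 129.97 ± 8.82 in AH236, beside 270.2 ± 199 in DMSO. The share of all genes in which the 3 agents did not overlap was not counted, for Vgf or for Sst and Npy above. Under glutamate the means were 894 ± 10.4 in AH609, 889.9 ± 85.7 in DMSO, 844 ± 25.7 in IS141 and 765 ± 43.8 in AH236. The AH236 range there lay below those of IS141 and AH609 and overlapped that of DMSO.

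Penk behaved much like Sst. DMSO medium had 59.5, 4.58 and 5.71 CPM and DMSO glutamate 108, 103 and 106 CPM. IS141 had 10.5, 12.1 and 15.1 CPM in medium and 97.9, 103 and 88.6 CPM under glutamate. AH609 had 6.95, 8.95 and 13.5 CPM in medium and 96.8, 115 and 103 CPM under glutamate. AH236 had 3.49, 3.77 and 5.22 CPM in medium and 78.9, 89.7 and 81.7 CPM under glutamate. The medium means were 23.3 ± 31.4 in DMSO, 12.6 ± 2.299 in IS141, 9.81 ± 3.38 in AH609 and 4.16 ± 0.925 in AH236. The AH236 range lay below those of IS141 and AH609, which overlapped each other. The glutamate means were 105 ± 2.46 in DMSO, 105 ± 9.01 in AH609, 96.5 ± 7.30 in IS141 and 83.5 ± 5.62 in AH236, and each neighbouring pair overlapped. The AH236 range under glutamate lay below that of AH609 and below that of DMSO, the latter as in 13.9% of all genes. The mean in medium fell from IS141 through AH609 to AH236 for 4 of 4 members, an order found in 23% of all genes tested.

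**Figure D1:**
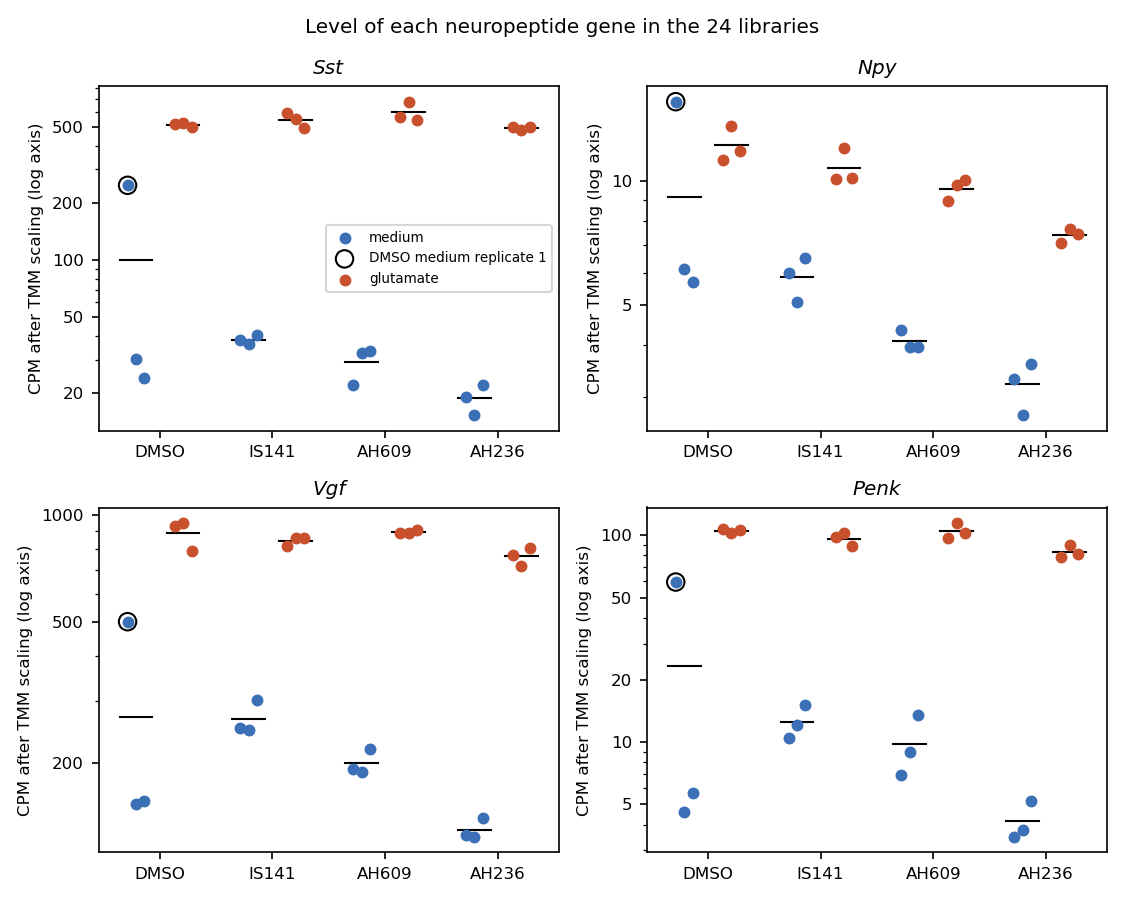
Levels of Sst, Npy, Vgf and Penk in each of the 24 libraries, in CPM on a log axis, by treatment and medium, with 1 point per library. Glutamate libraries lie above medium libraries for every gene, except that DMSO medium replicate 1 lies between the 2 sets for Sst, Vgf and Penk and above all glutamate libraries for Npy.

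The neuropeptide genes were together higher in the glutamate medium than in growth medium. Glutamate itself and any other difference between the 2 media cannot be told apart here. The 12 glutamate libraries lay above all 12 medium libraries without overlap for 3 of 4 members, Sst, Vgf and Penk, against 16.7% of all genes tested. With DMSO medium replicate 1 set aside, they lay above the 11 other medium libraries for 4 of 4, against 18.3% of genes. Without that library the ratio of the medians was 17.2 for Sst, at 522 against 30.3 CPM, and 14.4 for Penk, at 100.4 against 6.95 CPM. It was 4.56 for Vgf, at 859 against 189 CPM, and 2.32 for Npy, at 10.1 against 4.35 CPM. Because the RNA is from whole cultures, more cells of a type and more RNA per cell cannot be told apart.

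All genes were tested with edgeR's quasi-likelihood test, with Benjamini-Hochberg adjustment over all genes, and the threshold for a call was an adjusted p of 0.05. Over all 4 treatments, 4 of 4 members rose, with a median log2 fold change of 2.62. Under glutamate 38.8% of all genes were called higher by the same rule, so a call alone does not set these genes apart. The median over all genes was 0.00, which TMM scaling holds near 0, and -0.19 under scaling by library totals. Sst rose 14.1-fold (95% interval 8.97 to 22.2, adjusted p = 3.4e-09), and 0.522% of genes had a higher fold change. Penk rose 9.29-fold (5.86 to 14.7, adjusted p = 4.54e-08), and 0.918% of genes were higher. Vgf rose 4.07-fold (3.24 to 5.11, adjusted p = 1.74e-09), and 2.62% of genes were higher. Npy rose 1.91-fold (1.57 to 2.32, adjusted p = 3.21e-06), and 9.36% of genes were higher. Without DMSO medium replicate 1 the folds were 19.5 for Sst, 13.5 for Penk, 4.66 for Vgf and 2.12 for Npy.

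Within single treatments the members were called 3 of 4 times in DMSO and 4 of 4 times in each agent, where 28.6% of all genes in DMSO, 28.9% in IS141, 30.1% in AH609 and 29.5% in AH236 were called higher. For Sst the log2 fold change was 2.35 ± 0.57 (SE) in DMSO, 3.84 ± 0.62 in IS141, 4.35 ± 0.63 in AH609 and 4.72 ± 0.65 in AH236. For Penk it was 2.18 ± 0.57 in DMSO, 2.94 ± 0.61 in IS141, 3.41 ± 0.63 in AH609 and 4.32 ± 0.69 in AH236. For Vgf it was 1.72 ± 0.31 in DMSO, 1.66 ± 0.31 in IS141, 2.16 ± 0.31 in AH609 and 2.56 ± 0.32 in AH236. These 12 differences had adjusted p-values between 2.1e-06 and 0.00341. For Npy it was 0.88 ± 0.26 in IS141, 1.23 ± 0.28 in AH609 and 1.20 ± 0.28 in AH236, with adjusted p-values from 0.000795 to 0.00712. The Npy difference in DMSO, 0.42 ± 0.24, was not called (adjusted p = 0.150).

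The DMSO comparison was the one that turned on DMSO medium replicate 1. Without that library 4 of 4 members were called there, with 29.1% of all genes called higher. The log2 fold change in DMSO became 4.24 ± 0.18 for Sst (adjusted p = 3.99e-12), 4.35 ± 0.22 for Penk (1.97e-11), 2.52 ± 0.09 for Vgf (1.43e-15) and 1.04 ± 0.12 for Npy (5.85e-09). The fold changes in the 3 agents hardly moved, and their standard errors fell, to 0.15 to 0.16 for Sst and 0.16 to 0.19 for Penk, since the spread is shared by all groups. In a fit of the DMSO groups alone, with all 6 libraries, the rises of Sst, Penk and Vgf in DMSO missed the threshold (adjusted p = 0.141, 0.177 and 0.0619).

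**Figure D2:**
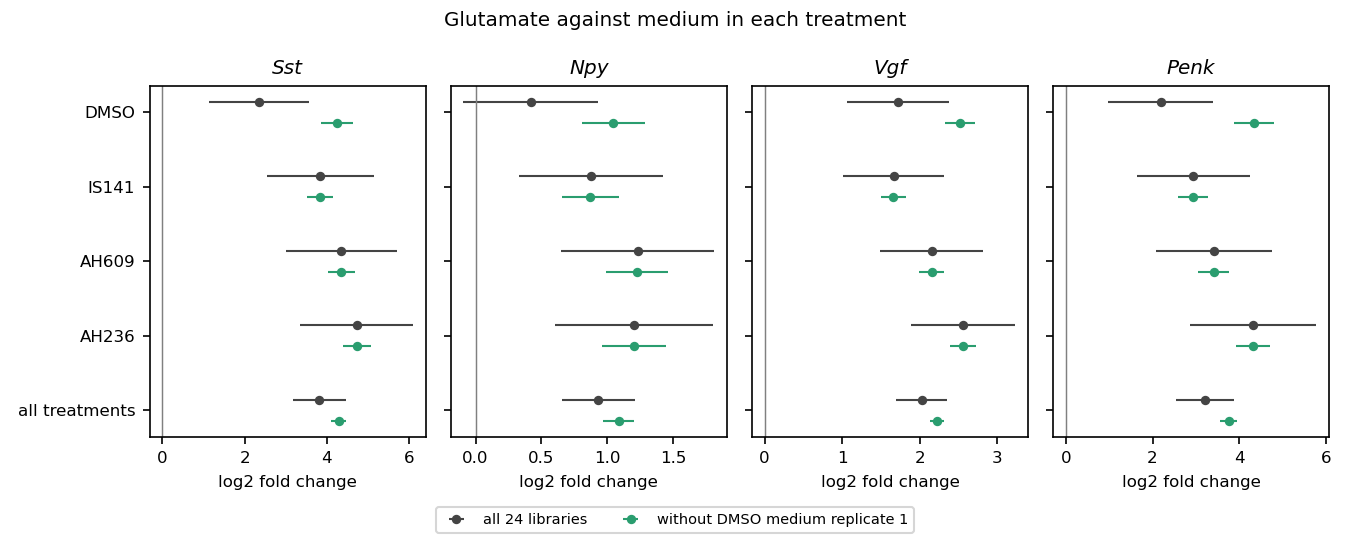
Log2 fold change of glutamate against growth medium for Sst, Npy, Vgf and Penk in each treatment, with 95% intervals, from all 24 libraries and without DMSO medium replicate 1. Leaving that library out moves the DMSO estimate, from 2.35 to 4.24 for Sst, and narrows the intervals of the other treatments.

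The members did not rise in proportion. The ratio of 2 genes' counts within a library does not depend on how libraries are scaled, and 6 such ratios were compared between the 12 glutamate and 12 medium libraries by a two-sided permutation test with 100000 resamples, adjusted over the 6. The median ratio of Sst to Npy counts was 6.16 in medium and 56.8 under glutamate, an 8.34-fold difference in means on the log scale (adjusted p = 3e-05, from the smallest p these resamples can give). Its log2 values ran from 2.08 to 3.99 in medium and from 5.27 to 6.15 under glutamate, without overlap. Sst also rose relative to Vgf, from a median ratio of 0.151 to 0.637, a 3.86-fold difference (adjusted p = 3e-05). Penk rose relative to Vgf, with a median ratio of Vgf to Penk of 25.3 in medium and 8.72 under glutamate (log2 difference -1.40, adjusted p = 4.8e-05). In DMSO medium replicate 1 the log2 ratio of Vgf to Penk was 3.07, the lowest of the medium libraries and within the glutamate range of 2.901 to 3.3004. Npy fell relative to Penk by 2.51 and relative to Vgf by 1.11 on the log2 scale (adjusted p = 3e-05 for each).

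Sst and Penk stayed closest to each other. Their median ratio was 3.85 in medium and 5.50 under glutamate, a 1.46-fold difference (adjusted p = 0.00028), and the 2 ranges overlapped, at log2 1.29 to 2.73 in medium and 2.24 to 2.67 under glutamate. Without DMSO medium replicate 1 the ratios differed in the same directions, by 3.18 (Sst to Npy), 2.09 (Sst to Vgf), 0.56 (Sst to Penk), -1.08 (Npy to Vgf), -2.62 (Npy to Penk) and -1.54 (Vgf to Penk) on the log2 scale. The adjusted p was then 0.00042 for Sst to Penk and 2.4e-05 for the other 5. The treatments were pooled in this test, and each medium held 3 libraries of each treatment.

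**Figure D3:**
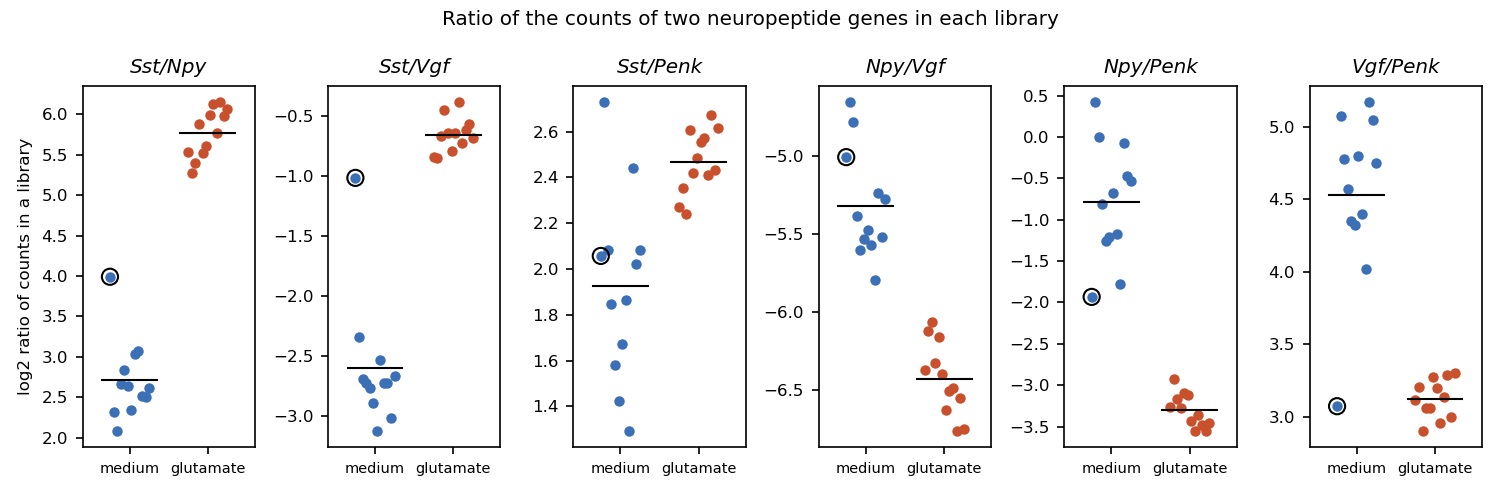
Log2 ratio of the counts of 2 neuropeptide genes within each library, for the 6 pairs, in growth medium and under glutamate, with 1 point per library. The Sst to Npy ratio is higher in all glutamate libraries, while the Sst to Penk ranges overlap.

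In growth medium, the comparisons of the agents with DMSO depended on DMSO medium replicate 1. With all 24 libraries, 4 of 4 members were lower in AH236 than in DMSO, beside 4.95% of all genes called lower. Sst was 5.36-fold lower (adjusted p = 0.0161), Penk 5.56-fold (0.0343), Npy 2.84-fold (0.00173) and Vgf 2.08-fold (0.0371). In AH609 1 of 4, Npy, was 2.23-fold lower (adjusted p = 0.0267), beside 0.849% of genes called lower. In IS141 0 of 4 were called, beside 7.98% of genes called in either direction. In IS141 the log2 differences were -1.40 for Sst, -0.64 for Npy, -0.02 for Vgf and -0.89 for Penk (adjusted p 0.155 to 0.981), with 2 of them, Sst and Npy, at an unadjusted p under 0.05. DESeq2 also called 0 of the 3 to which it gave an adjusted p. In AH609 the Sst, Vgf and Penk differences of -1.78, -0.43 and -1.24 were not called (adjusted p = 0.123, 0.542 and 0.373). All of these comparisons share the DMSO libraries. Leaving out DMSO medium replicate 3 instead made Sst and Npy lower in IS141, at -1.86 (adjusted p = 0.0259) and -0.89 (0.0237), and Sst lower in AH609, at -2.25 (0.0228). The AH236 calls were lost on leaving out AH236 medium replicate 1 or 2 for Sst (adjusted p = 0.0640 and 0.0625) and any of the 3 AH236 medium replicates for Vgf (0.0828 to 0.116) and Penk (0.0805 to 0.115). The Npy call in AH609 was lost without any 1 of the 3 AH609 medium replicates (0.0827 to 0.101). Without the filter on low counts, Vgf (0.0591) and Penk (0.0534) in AH236 and Npy in AH609 (0.0585) missed the threshold, and in a fit of the compared groups alone the 4 AH236 differences missed it (0.192 to 0.422), as did Npy in AH609 (0.485).

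Without DMSO medium replicate 1, Npy was still lower in AH236, by a log2 difference of -0.88 ± 0.13 (adjusted p = 3.9e-05), and in AH609, by -0.53 ± 0.13 (0.0126). The other AH236 differences were no longer called, at -0.53 ± 0.17 for Sst (adjusted p = 0.0668), -0.26 ± 0.09 for Vgf (0.0704) and -0.31 ± 0.27 for Penk (0.581). Vgf and Penk were then higher in IS141, by 0.78 ± 0.09 (1.93e-06) and 1.28 ± 0.24 (0.00171), and in AH609, by 0.37 ± 0.09 (0.0109) and 0.93 ± 0.25 (0.0359). Sst did not pass in IS141 (0.49, adjusted p = 0.0722) or AH609 (0.11, 0.802), nor Npy in IS141 (-0.01, 0.983). The DMSO group then had 2 libraries. Of all genes, 7.18% were called higher in IS141 and 4.46% in AH609, and 1.76% were called lower in AH609 and 3.39% in AH236.

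**Figure D4:**
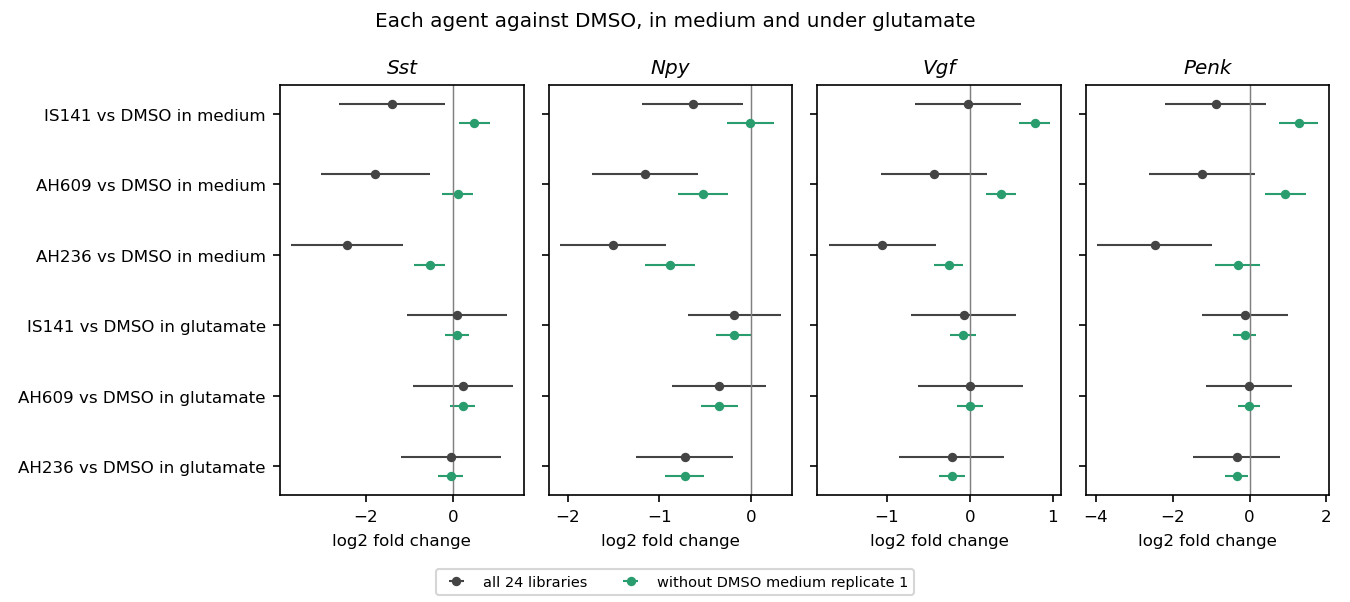
Log2 difference of each agent from DMSO for Sst, Npy, Vgf and Penk, in growth medium and under glutamate, with 95% intervals, from all 24 libraries and without DMSO medium replicate 1. In medium the estimates for all 4 genes shift upward when that library is left out, and the interval of Npy in AH236 is below 0 in both sets.

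Under glutamate, Npy was the member with the lowest level relative to DMSO, in AH236. With all 24 libraries, edgeR called 0 of 12 differences, 1 of the 12, Npy in AH236, had an unadjusted p under 0.05, and DESeq2 called that 1 of the 9 to which it gave an adjusted p. In fits of the AH236 and DMSO glutamate groups alone, Npy, Vgf (-0.23, adjusted p = 0.0272) and Penk (-0.35, 0.000516) were called lower, beside 5.04% of all genes in that fit. In the fit of all 24 libraries, 8.46% of all genes were called in IS141, 2.62% in AH609 and 10.3% in AH236. Sst differed by 0.09 in IS141, 0.22 in AH609 and -0.05 in AH236 on the log2 scale, with 95% intervals that reached from -1.20 to 1.36. Npy in AH236 was 1.65-fold lower, with a log2 difference of -0.72 ± 0.25 (adjusted p = 0.0790), and the AH236 libraries lay below the DMSO libraries without overlap, at 7.09 to 7.64 against 11.2 to 13.6 CPM, as did 13.9% of all genes. With DMSO medium replicate 1 out of the shared fit the same log2 difference was called, with a standard error of 0.10 (adjusted p = 1.03e-05), and Npy in AH609 was called lower as well, at -0.35 ± 0.10 (0.0332). The share of all genes called lower was then 6.35% in AH236 and 2.65% in AH609. Intervals without that library were narrower, at -0.33 to 0.22 for Sst in AH236 and -0.30 to 0.28 for Penk in AH609. A p above the threshold does not show that the levels were equal.

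The change that each agent made to the glutamate effect was tested as an interaction. With all 24 libraries edgeR called 0 of 12, beside 0.779% of genes in IS141, 0.0251% in AH609 and 1.55% in AH236. There were 4 at an unadjusted p under 0.05, Sst and Npy in AH609 and Sst and Penk in AH236, and DESeq2 called 0 of the 9 to which it gave an adjusted p. The largest was Sst in AH236, at 2.37 ± 0.80 on the log2 scale (adjusted p = 0.160). Without DMSO medium replicate 1 that difference was 0.48 ± 0.22 (0.288), and without DMSO medium replicate 3 it was 2.84 (0.0379). With replicate 1 left out, the glutamate effect in IS141 was smaller than in DMSO for Vgf, by -0.86 ± 0.11 (5.79e-05), and for Penk, by -1.41 ± 0.28 (0.00593), where 3.36% of all genes were called lower. The corresponding values in AH609 were -0.36 ± 0.11 for Vgf (0.165) and -0.94 ± 0.29 for Penk (0.169).

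The agents were also set against one another over both media, a comparison that the DMSO libraries enter only through the shared estimate of spread. With all 24 libraries, Npy was 1.63-fold lower in AH236 than in IS141 (log2 -0.71 ± 0.19, adjusted p = 0.0178), 1 of 4 members, beside 6.47% of all genes called lower. Sst, Vgf and Penk were not called in that pair, at -0.59 ± 0.40 (0.363), -0.59 ± 0.21 (0.0732) and -0.90 ± 0.46 (0.206). For AH609 against IS141 and AH236 against AH609, edgeR called 0 of 8, with 0 of 8 at an unadjusted p under 0.05 and 0 of 6 by DESeq2. The share of all genes called was 2.67% and 0.685%. The log2 differences were -0.13 for Sst, -0.34 for Npy, -0.16 for Vgf and -0.12 for Penk in the first pair, and -0.46, -0.36, -0.43 and -0.78 in the same order in the second.

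Without DMSO medium replicate 1 the same fold changes had smaller standard errors. AH236 was then lower than IS141 for 4 of 4 members (adjusted p 1.17e-07 to 0.000502), beside 10.3% of all genes called lower. It was lower than AH609 for 4 of 4 members as well (5.51e-05 to 0.0168), beside 2.02% of all genes. AH609 was lower than IS141 for Npy alone (0.00829), beside 3.61% of all genes. Averaged over both media, the direction was the same for all 4 members in the 3 pairs and both fits, with the lowest level in AH236. AH236 against IS141 is the sum of the other 2 differences, and both fits use the same agent libraries, so these are not separate results. The share of all genes with these directions was not counted. Under glutamate alone, the AH609 mean was above the IS141 mean for Sst (599.8 against 549 CPM), Vgf (894 against 844) and Penk (105 against 96.5), but not for Npy. In medium, the AH236 libraries lay below those of the 2 other agents without overlap for 4 of 4 members, against 5.31% of all genes.

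**Figure D5:**
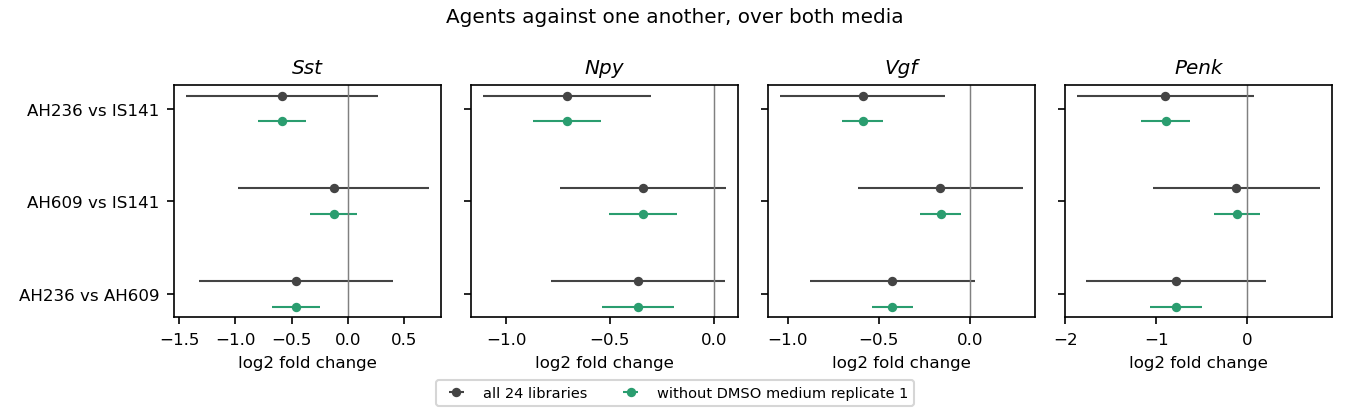
Log2 difference between agents over both media for Sst, Npy, Vgf and Penk, with 95% intervals, from all 24 libraries and without DMSO medium replicate 1. All 12 estimates are below 0 in each set, and both sets use the same agent libraries. AH236 against IS141 is the sum of AH609 against IS141 and AH236 against AH609. Its estimate is therefore the lowest for each gene once those are below 0, which is not a separate result.

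The likeness of the members' patterns was described by Pearson's r of log2 CPM over the 24 libraries, among 15907 other genes. The points share the large step between the media, so r was high for many genes and no p is given. Vgf and Penk were each the third closest gene to the other, at r = 0.99. Sst correlated with both at r = 0.99, where Vgf was rank 12 and Penk rank 11 among the genes most like Sst. Npy stood further off, at r = 0.86 to 0.87 with the other members. When group means were subtracted, r between members was 0.88 to 0.96 over the 24 libraries. With DMSO medium left out as well, leaving 21 libraries, r ran from 0.19 for Npy and Penk to 0.71 for Sst and Penk. Among genes with the opposite pattern, ENSRNOG00000005018 was lowest for Sst (r = -0.99, log2 fold change under glutamate -0.70) and ENSRNOG00000001585 for Penk (r = -0.98, -0.93).

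For 2 members the closest gene was a row that could not be told from a copy. Npy and ENSRNOG00000046449 had r = 0.999, with a count ratio of 0.843 to 0.960 across libraries. That ratio varied far less than 2 rows of independent reads would give (chi-square 1.49 on 23 degrees of freedom, p = 1). Vgf and ENSRNOG00000053620 had r of 0.9999 and a ratio of 1.38 to 1.47, which varied about as much as sampling noise (chi-square 27.2, p = 0.249). Rows of this kind may share reads, and the counts of Npy and Vgf may then be a part of each gene's reads, 47.6% of the pair's counts for Npy and 58.7% for Vgf. Absolute levels of these genes are therefore uncertain, while the log2 fold changes over all treatments were 0.89 for the partner of Npy and 2.00 for that of Vgf, beside 0.93 and 2.02 for the members. Summing each pair of rows changed no call.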

How the data were processed

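Total RNA of rat cortical cells was sequenced in 24 libraries, made with the RNeasy Mini and NEBNext Ultra II Directional kits, per the labels' protocols. The authors deposited whole-number counts per gene, with no normalization. The submitters' processing notes name bcl2fastq, cutadapt 2.3, FastQC 0.11.8, STAR 2.7.8a, RSEM 1.3.3 and the build Rnor_6.0, while what each did, the annotation used and whether strand was counted is "not given in the sources used here". As RSEM gives estimated counts, the deposited values may have been rounded. Groups came from the sample titles, where an unnumbered title is replicate 1. Of 2 AH236 glutamate titles numbered 2, the later is called replicate 3.

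Counts were tested with edgeR 4.0.16 (R 4.3.3) in 1 fit of all 24 libraries with a mean for each of 8 groups, filterByExpr (15908 of 32754 genes kept), TMM scaling and robust quasi-likelihood F tests. There were 17 comparisons, each adjusted by Benjamini-Hochberg over all genes. Standard errors are the absolute log2 fold change over the root of F. The common coefficient of variation between replicates, which edgeR names biological, was 7.49%. Part of it may be technical, and DMSO medium replicate 1 is included. Library totals are given with the results. DESeq2 1.42.0, other scalings, no filter, the compared groups alone, a replicate block and leaving out each library were alternatives.

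The members, lists and named genes were chosen with earlier results of these data known. The rule named the 4 members, the genes with the highest and lowest r with each, and genes of 14 lists of 169 symbols. IDs could be matched to 0 symbols, so the lists, the marker check and the ratio to GABAergic genes are not analysed here, and at most 2 IDs in each direction are printed.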

Additional observations from a re-analysis of the deposited data

Results flagged for a closer look

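Without DMSO medium replicate 1, the glutamate effect on Vgf in IS141 cultures differed from that in DMSO cultures by -0.86 on the log2 scale (edgeR interaction test, adjusted p = 5.79e-05). The medium level of Vgf was then higher in IS141 (251, 248 and 301 CPM) than in the 2 remaining DMSO libraries (154 and 157 CPM), while the glutamate levels overlapped. The same test gave -1.41 for Penk (adjusted p = 0.00593), with medium levels of 10.5, 12.1 and 15.1 CPM in IS141 and 4.58 and 5.71 CPM in DMSO. With all 24 libraries the values were -0.06 for Vgf and 0.76 for Penk and neither was called (adjusted p = 0.989 and 0.854), so both rest on leaving out 1 library. What set that library apart was not tested.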

How the results depend on the processing

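All values here are log2 differences. The rises under glutamate kept their direction in every alternative run, and over all treatments all 4 members stayed past the threshold in each that gave an adjusted p. With the compared groups fitted alone, the rises in DMSO were 2.37 for Sst, 1.73 for Vgf and 2.19 for Penk and were not called, nor were AH236 against DMSO in medium (Sst -2.43, adjusted p = 0.372; Npy -1.51, 0.192; Vgf -1.06, 0.422; Penk -2.49, 0.405) and AH609 for Npy (-1.16, 0.485). The same fits gained calls that do not involve DMSO medium libraries: AH236 against DMSO under glutamate (Npy -0.73, Vgf -0.23, Penk -0.35), AH236 against IS141 (Sst -0.59, Vgf -0.59, Penk -0.90), AH236 against AH609 (Npy -0.37, Vgf -0.43, Penk -0.78) and AH609 against IS141 (Npy -0.35).

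With DMSO medium replicate 1 left out of the shared fit, calls were gained for AH236 against IS141 (Sst -0.59, Vgf -0.59, Penk -0.90), AH236 against AH609 (Sst -0.46, Npy -0.36, Vgf -0.43, Penk -0.78), AH609 against IS141 (Npy -0.34) and, under glutamate against DMSO, Npy in AH236 (-0.72) and AH609 (-0.35). DESeq2 gained Npy in AH236 under glutamate (-0.72) and Sst in AH609 in medium (-1.78, adjusted p = 0.0281), and gave no adjusted p for Penk in any of the 17 comparisons. Scaling by library totals moved the median of all genes under glutamate to -0.19. It gained Npy in AH236 under glutamate (-0.80) and Vgf in AH236 against IS141 (-0.65). It was also the setting under which group levels moved by more than 1 SD, in 10 of 160 cases. The 160 cases took in 5 alternatives for each level, so the share under library totals alone was larger. Leaving out 1 of 3 libraries cannot move a group mean that far, so this count says nothing about single libraries. Without DMSO medium replicate 1 the DMSO medium mean fell from 101 to 27.2 CPM for Sst and from 9.14 to 5.91 CPM for Npy. For Vgf it fell from 270.2 to 155 CPM and for Penk from 23.3 to 5.14 CPM. With no filter, Npy in AH609 (-1.15), Vgf in AH236 (-1.05) and Penk in AH236 (-2.47) were no longer called in medium.

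Leaving out 1 library at a time, the differences from DMSO in medium ranged from -1.86 to 0.49 (Sst), -0.89 to -0.0074 (Npy), -0.30 to 0.78 (Vgf) and -1.37 to 1.28 (Penk) in IS141. In AH609 they ranged from -2.25 to 0.11 (Sst), -1.41 to -0.53 (Npy), -0.71 to 0.37 (Vgf) and -1.72 to 0.93 (Penk). In AH236 they ranged from -2.89 to -0.53 (Sst), -1.34 to -0.26 (Vgf) and -2.96 to -0.31 (Penk). The Npy rise in DMSO ranged from 0.16 to 1.04. The change of the glutamate effect ranged from -0.86 to 0.22 for Vgf and -1.41 to 1.24 for Penk in IS141, and from 0.48 to 2.84 for Sst in AH236. Of 24 calls lost in the comparisons with DMSO in medium, 14 were lost on leaving out 1 library, 3 of them on leaving out DMSO medium replicate 1 and the other 11 on leaving out an AH236 or AH609 medium library. In each of these ranges 1 end was the value without DMSO medium replicate 1.

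The share of all genes called moved as well, from 35.7% to 61.8% for glutamate in DMSO, 0.580% to 13.8% for AH236, 0.0203% to 6.22% for AH609 and 0.416% to 11.99% for IS141 against DMSO in medium. The replicate numbers did not pair the libraries. Deviations from group means correlated at r = -0.20 to 0.17 (median 0.00183) over 84 pairs of libraries with the same number, and 6 of 24 libraries correlated best with their own number. With a replicate block, Vgf (-0.999, adjusted p = 0.0585) and Penk (-2.36, 0.0615) in AH236 against DMSO in medium were not called, and the block changed no other call of a member. The ratio to GABAergic genes was not run.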
